A study of Mus musculus with 43 samples.

Results

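The coagulation and complement genes described here are 40 genes that the liver supplies to the blood, 20 of the complement system and 20 of blood clotting and clot removal. They were taken by gene symbol from a fixed list of members. All 40 were found among the 14622 genes of the first of 2 expression tables and 39 among the 13741 genes of the second, where Klkb1 was not analysed. Every member found also passed the filter on low values in its table, so no member was left out of a test.

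Liver RNA came from 36 male mice, 4 to 5 months old, of a C57BL6/J x FVBN background, and gave 43 libraries in 10 groups. PiZ mice carry a human transgene of the Z form of alpha-1-antitrypsin, LIRKO livers are without their insulin receptor, and F1KO livers have also lost FOXO1, the transcription factor that insulin normally keeps out of the nucleus. The promoter or Cre line behind each deletion is not given in the sources used here. The hemizygous table held 5 PiZ x LIRKO x F1KO mice (Z LIRKO F1KO), 4 PiZ x LIRKO mice (Z LIRKO), 5 PiZ mice labelled Z* (written Zstar), 5 PiZ mice labelled Z, 4 LIRKO mice and 3 wild-type mice (WT). The homozygous table held 7 PiZ x LIRKO mice labelled ZZ (ZZ LIRKO), 3 PiZ mice labelled ZZ, and the 4 LIRKO and 3 WT mice of the first table once more. Zstar and Z LIRKO F1KO mice carried the source label F1IRZZ and the other groups of the hemizygous table IRZZ. This label and the genotype therefore cannot be told apart in Zstar against Z or WT, or in Z LIRKO F1KO against Z LIRKO.

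Complement is a cascade of plasma proteins. Mannose-binding lectins or C1 start it through their attached proteases, C4 and C2 or factor B form the convertases that cleave C3 and C5, and C6, C7, C8 and C9 assemble the membrane attack complex, while C4b-binding protein, factor I and C1 inhibitor hold it in check. Coagulation runs through tissue factor with factor VII, or through the contact factors XII and XI with kallikrein and kininogen, to thrombin, which turns fibrinogen into fibrin. Antithrombin, protein C with protein S, and heparin cofactor II limit it, and plasmin dissolves the clot. Hepatocytes make most of these proteins, and many of the genes respond to the acute phase cytokines.

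The stretches before the start sites of 7 genes are printed because the comparisons below turn on these genes. C6, C8a, C4bp and F11 fell in LIRKO against WT and in Z LIRKO against Z. C6, C8a, C4bp and F11 were also higher in Z LIRKO F1KO than in Z LIRKO, groups that differ in source label too. The 3 fibrinogen genes changed in the homozygous table. The sequences come from RefSeq promoters (build GRCm38.p6) and run 5′ to 3′ on the strand of the gene. Each covers up to 250 bases before the RefSeq start and was ended where the GENCODE gene begins. Capitals mark matches, on either strand, to GTAAACA (a FOXO motif), CAAAACA (the core of an insulin response element), TTCNNNGAA (a STAT motif) or the HNF1 motif.
C6: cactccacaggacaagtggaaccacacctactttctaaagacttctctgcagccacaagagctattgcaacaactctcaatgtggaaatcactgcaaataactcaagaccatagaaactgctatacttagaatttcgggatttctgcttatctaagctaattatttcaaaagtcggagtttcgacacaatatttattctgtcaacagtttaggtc
C8a: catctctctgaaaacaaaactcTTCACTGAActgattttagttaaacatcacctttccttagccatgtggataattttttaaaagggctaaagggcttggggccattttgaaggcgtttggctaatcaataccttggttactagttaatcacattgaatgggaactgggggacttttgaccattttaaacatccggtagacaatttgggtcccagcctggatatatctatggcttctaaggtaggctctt
C4bp: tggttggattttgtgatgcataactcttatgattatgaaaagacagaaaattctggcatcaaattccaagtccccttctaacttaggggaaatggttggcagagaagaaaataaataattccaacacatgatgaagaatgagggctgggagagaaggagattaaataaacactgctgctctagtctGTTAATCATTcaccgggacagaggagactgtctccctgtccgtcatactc
F11: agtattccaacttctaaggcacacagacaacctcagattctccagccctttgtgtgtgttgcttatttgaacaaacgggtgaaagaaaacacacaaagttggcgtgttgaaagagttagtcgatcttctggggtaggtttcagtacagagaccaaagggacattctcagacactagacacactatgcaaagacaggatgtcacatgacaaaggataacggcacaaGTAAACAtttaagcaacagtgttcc
Fga: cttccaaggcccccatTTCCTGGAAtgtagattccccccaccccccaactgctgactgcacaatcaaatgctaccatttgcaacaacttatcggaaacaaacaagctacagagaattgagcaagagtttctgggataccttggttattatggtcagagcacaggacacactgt
Fgb: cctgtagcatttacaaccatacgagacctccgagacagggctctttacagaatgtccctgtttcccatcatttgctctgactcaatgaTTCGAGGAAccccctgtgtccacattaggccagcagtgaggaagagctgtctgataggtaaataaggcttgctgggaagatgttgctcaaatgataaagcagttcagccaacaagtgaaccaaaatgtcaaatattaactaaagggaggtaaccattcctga
Fgg: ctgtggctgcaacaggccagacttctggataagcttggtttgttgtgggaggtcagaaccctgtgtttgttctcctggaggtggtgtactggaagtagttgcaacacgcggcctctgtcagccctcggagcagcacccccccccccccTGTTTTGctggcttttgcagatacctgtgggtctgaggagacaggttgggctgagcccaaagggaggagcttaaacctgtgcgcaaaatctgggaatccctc
These lie at chr15:4726960-4727174 (plus strand, C6), chr4:104876399-104876648 (minus, C8a), chr1:130661633-130661868 (minus, C4bp), chr8:45262032-45262281 (minus, F11), chr3:83025903-83026075 (plus, Fga), chr3:83049864-83050113 (minus, Fgb) and chr3:83007474-83007723 (plus, Fgg). A window was on file for 30 of the 40 members. Matches were counted over the full 250 bases, before any cut at the GENCODE start. Of these members, 2 held GTAAACA in any window (F11 and Klkb1, neighbours on chromosome 8), against 3.54% of 27025 genes with a window. The Klkb1 window lies wholly inside the GENCODE gene of the analysed identifier. CAAAACA stood in 3 members (F12, F13b and Fgg) against 6.38% of all genes, and TTCNNNGAA in 6 (C8a, F9, Fga, Fgb, Masp2 and Pros1) against 8.13%. The HNF1 motif stood in 3 members (C4bp, F13b and Hc) against 0.44% of all genes. Per window of 250 bases, the shares over all 32817 windows were 3.16%, 5.56%, 7.01% and 0.372% in the same order. A match says only that these letters are present, and C6 held none of the 4 motifs in its window.

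All values are log2 CPM as deposited (CPM, the reads of a gene scaled to a common library size), and a difference of 1 is a fold of 2. The libraries held 13.8 to 23.9 M reads in the hemizygous table and 38.2 to 90.1 M in the homozygous one. Tests were made within a table with limma over all genes, and p-values were adjusted over all tested genes of a comparison by the Benjamini-Hochberg method, with a threshold of 0.05. The labels were checked on their targets, and Insr was below every liver with the receptor in each LIRKO group. It stood at 5.75 to 6.09 in LIRKO and 7.04 to 7.24 in WT of the hemizygous table. In the homozygous table it was at 5.44 to 5.87 in ZZ LIRKO and 6.40 to 6.66 in ZZ. Insr RNA was thus lower in LIRKO livers but not absent. Foxo1 stood at 2.61 to 2.98 in Z LIRKO F1KO, against 5.38 to 5.86 in Zstar. In bulk liver, fewer hepatocytes and less RNA per hepatocyte cannot be told apart. Hepatocyte markers were abundant in every library, with a summed CPM of 67274 or more, while the platelet markers, which could carry clotting genes of their own, summed to at most 25.6 CPM.

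Some members are less certain than others because of how genes overlap. C2 and Cfb, neighbours on chromosome 17, lie within the readthrough gene Gm20547, which shares 58% of the distinct 50-base words of the longest C2 transcript and 81.4% of those of Cfb. C4a and C4b share 35.2% of theirs, C1ra 48% with C1rb, C1s1 24.3% with C1s2 and Kng1 18% with Kng2. The identifier listed as Klkb1 is named Gm45753 in GENCODE M21 and shares 82% of its words with the Klkb1 gene itself, so its values may mix these loci. Protein-coding genes on the opposite strand overlap C8a (Gm17662), C8g (Fbxw5), Masp2 (Tardbp), Masp1 (Rtp4), C2 (Zbtb12), Plg (Slc22a3), Serpind1 (Pi4ka) and Serpinc1 (Zbtb37). Noncoding genes on that strand overlap C1s1, F5, Fgg and Hc, among others. The strand rule of counting is not given in the sources used here.

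The same 7 livers could be read in both tables. For 38 of the 39 members the homozygous minus hemizygous difference was within 1 log2 unit, and for 34 of them within 0.5. Cfb, the factor B of the alternative pathway, was the exception, at 2.61 log2 CPM in the homozygous and 6.21 in the hemizygous table, a difference of -3.60 that ranged from -3.90 to -3.41 over the mice. C1ra differed by 0.68 and C4b by 0.55, while C8g differed by -0.52. Over the 13307 genes found in both tables, 4.7% differed by more than 1, with a median of -0.12. Levels were therefore not compared between the 2 sets, and Cfb in the homozygous table is a low value whose difference from the other table was not traced.

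**Figure D1:**
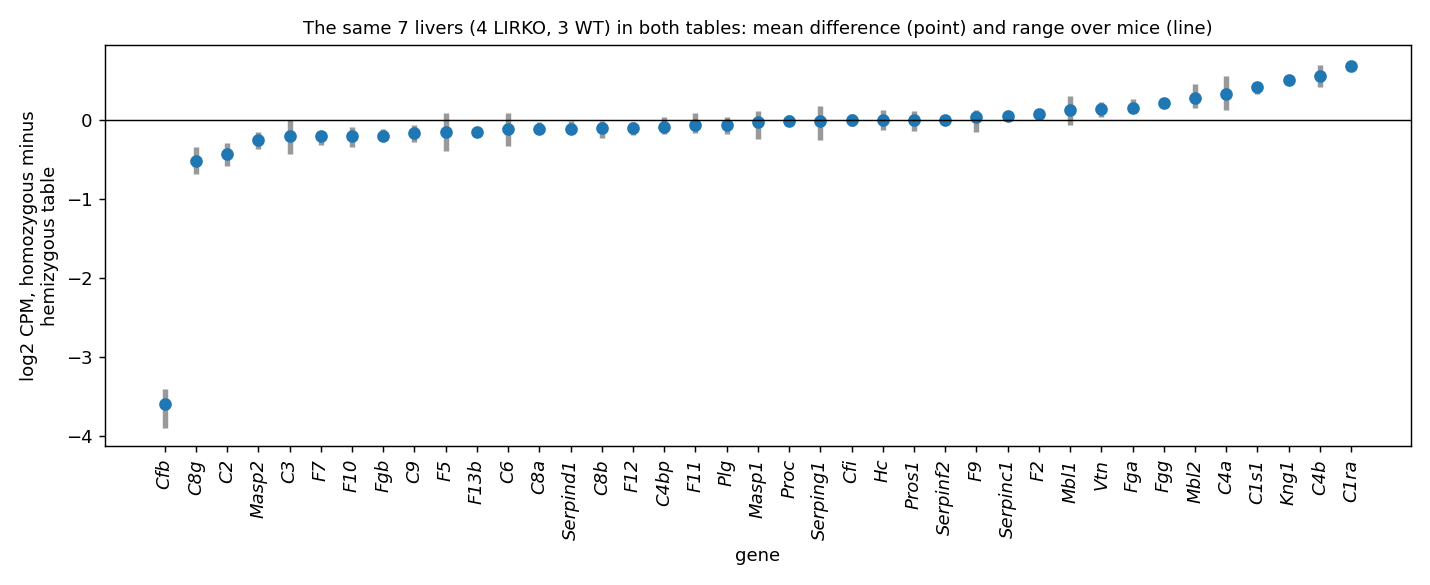
Difference of log2 CPM (y axis) between the homozygous and the hemizygous table for each member (x axis) in the same 7 livers, with the mean as a point and the range over mice as a line. Cfb stands alone at -3.60, and the other members lie within 1.

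The levels of the members spanned a wide range. In WT livers of the hemizygous table C3, the central component of complement, averaged 13.59 ± 0.08 log2 CPM and Klkb1 3.72 ± 0.24 (SD, n = 3). Per kilobase of exon, as a geometric mean, C3 stood at 2392 CPM and the fibrinogen chains Fga, Fgb and Fgg at 1762, 1394 and 1654. Vtn, the clot and matrix protein vitronectin, followed at 1302. At the low end were Klkb1 at 4.78, C2 at 7.03, Masp1 at 10.3 and Pros1 at 14.2 CPM per kilobase. In every library the 20 complement members together took 1.69 to 2.74% of the summed CPM and the coagulation members 2.07 to 4.49%. Variation between mice of a group was widest for C4a, with a median SD of 0.60 over the groups of the hemizygous table, then C9 (0.40) and C6 (0.39), and narrowest for F13b (0.09).

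In livers without the insulin receptor a block of complement genes was lower, with the terminal components C6 and C8a and the C4 paralogue C4a furthest down. In LIRKO against WT (hemizygous table) 9 complement members fell and 1 rose, with a median of -0.21 over the 20, beside 12% of all tested genes that fell and 11.8% that rose and a median of 0.01 over all genes. In Z LIRKO against Z 11 fell and 1 rose, with a median of -0.57, beside 17.7% and 16.7% of all genes and a median of 0.02. The shares that fell, of the 20, lay well above those of all genes, and the shares that rose lay below. Scaled by plain read sums, 7 fell and 3 rose in the first comparison, beside 8.02% of all genes that fell and 14.9% that rose, and 11 fell and 1 rose in the second, beside 12.2% and 20.6%. In the homozygous table the same LIRKO and WT livers gave 7 that fell and 1 that rose (14.0% and 13.8% of all genes), which is a second count of the same animals and no independent result. The difference between the 2 hemizygous-table effects, the hemizygous interaction, was called for none of the 40 members by limma, with or without voom weights. Of all genes 0.140% were called lower and 0.0588% higher. At an unadjusted p under 0.05 limma gave 3 of the 40 members and 10.2% of all genes. The macrophage markers, a sign of other cells, moved too: 7 of 8 rose in Z LIRKO against Z and 4 of 8 in LIRKO against WT, with a summed CPM of 759 to 906 in Z LIRKO and 422 to 612 in Z. Endothelial markers rose for 7 of 8 in Z LIRKO against Z (425 to 606 CPM in Z LIRKO, 314 to 428 in Z). Of 9 hepatocyte markers, 3 rose and 3 fell in LIRKO against WT, and 4 rose and 3 fell in Z LIRKO against Z. Their summed CPM was 73076 to 100878 in LIRKO, below the 121631 to 140675 in WT. It was 84057 to 89831 in Z LIRKO and 88338 to 132004 in Z. The part of these shifts in the results was not tested. A value that contrasts late with early clock genes was 2.04 to 4.01 in LIRKO and -0.73 to 1.48 in WT, without overlap. All 5 early clock genes fell and 4 of 5 late ones rose. With this value as a covariate, 11 of the 40 members were called in LIRKO against WT in place of 17, and C9 (-0.20), C8b (-0.58) and Mbl1 (-0.64) no longer passed among complement members.

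C6 (chr15:4727175-4814967, plus strand, GRCm38) encodes the component that binds C5b and seeds the membrane attack complex. Its levels were 5.02, 4.56, 4.83 and 5.02 log2 CPM in Z LIRKO livers, against 7.65, 7.91, 6.98, 7.77 and 7.71 in Z livers. They were 4.79, 4.46, 5.17 and 5.16 in LIRKO livers, against 8.61, 6.75 and 6.60 in WT livers. The groups did not overlap in either pair, and the WT mouse numbered 1564 was the highest of the 4 groups. The log2 change was -2.75 ± 0.32 (SE, adjusted p = 6.87e-07, limma) in Z LIRKO against Z, a fold of 6.71, and -2.43 ± 0.36 (adjusted p = 3.05e-05) in LIRKO against WT, a fold of 5.37.

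C8a, C8b and C8g encode the 3 chains of C8, which inserts into the target membrane. C8a (chr4:104815679-104876398, minus strand) stood at 7.42, 7.24, 7.29 and 7.31 log2 CPM in Z LIRKO livers, against 9.91, 9.94, 9.51, 9.92 and 9.57 in Z livers. It was at 7.61, 7.58, 8.36 and 7.55 in LIRKO livers, against 10.19, 9.60 and 9.65 in WT livers. No LIRKO-type liver reached the lowest liver with the receptor. The changes were -2.46 ± 0.19 (adjusted p = 2.04e-09, limma) and -2.04 ± 0.22 (adjusted p = 4.55e-07). The other 2 chains changed less, C8g by -1.08 and C8b by -0.90 in Z LIRKO against Z, and by -0.73 and -0.84 in LIRKO against WT, all past the threshold. C9, which forms the pore, fell by 1.22 on the log2 scale in Z LIRKO against Z and by 0.87 in LIRKO against WT. Without WT mouse 1564 the LIRKO change of C9 was -0.43 (adjusted p = 0.373, limma) and that of C8b -0.56 (adjusted p = 0.145). Hc, the gene of C5, which starts the terminal step, did not pass in either comparison (-0.09 and 0.19). It stood at 9.5 to 9.93 log2 CPM in Z LIRKO and 9.51 to 10.01 in Z, and at 9.85 to 10.50 in LIRKO and 9.62 to 10.43 in WT. The members of the terminal pathway thus did not share one size of change, with C6 and C8a changed most and Hc not past the threshold.

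C4a and C4b are paralogues, and in mice C4a is the sex-limited protein, a C4-like protein made in males under androgen and growth hormone control. C4a (chr17:34809092-34823464, minus strand) was at 6.01, 5.72, 5.99 and 6.17 log2 CPM in Z LIRKO livers, against 8.86, 9.60, 8.12, 9.27 and 8.59 in Z livers. It was at 5.92, 6.31, 6.79 and 6.19 in LIRKO livers, against 9.48, 7.93 and 8.71 in WT livers. All 8 LIRKO-type livers were below all 8 livers with the receptor. The log2 changes were -2.92 ± 0.40 (adjusted p = 6.61e-06, limma) and -2.41 ± 0.45 (adjusted p = 0.000426). C4b, the active C4, did not pass in either comparison, at -0.20 and 0.15. The C4a minus C4b difference of log2 CPM was -4.02 to -3.67 in Z LIRKO and -1.73 to -0.81 in Z, and -3.95 to -3.52 in LIRKO and -1.59 to -0.52 in WT.

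Among the lectins that start complement on microbial sugars, Mbl1 changed by -0.82 and Mbl2 by -0.72 in Z LIRKO against Z, and by -0.72 and -0.62 in LIRKO against WT, all past the threshold. Mbl1 was at 6.12 to 6.82 log2 CPM in Z LIRKO, against 7.16 to 7.62 in Z. Mbl2 overlapped, at 7.43 to 8.35 in Z LIRKO and 8.20 to 8.79 in Z. Without the libraries with pancreatic Prss2 above 0 log2 CPM, the LIRKO against WT change of Mbl1 was -0.51 and that of Mbl2 -0.38, with 1 WT library left. C4bp, which encodes C4b-binding protein, fell by 1.02 in Z LIRKO against Z (adjusted p = 2.8e-08, limma) and by 0.98 in LIRKO against WT (adjusted p = 7.04e-07). It stood at 8.10, 8.11, 7.87 and 7.87 in Z LIRKO livers, against 8.88, 9.05, 9.10, 9.12 and 8.89 in Z livers, with no overlap. Masp1, a lectin-pathway protease gene, and Cfb fell in Z LIRKO against Z, by 0.60 and 0.54, and did not pass in LIRKO against WT (-0.15 and -0.01). C2, the protease that joins C4, was the 1 complement member that rose, by 0.52 in Z LIRKO against Z and 0.78 in LIRKO against WT. It stood at 5.54, 5.48, 5.69 and 5.46 log2 CPM in LIRKO livers, against 5.36, 4.47 and 4.47 in WT livers. Without the Prss2 libraries, which leave WT mouse 1564 alone, its LIRKO change was 0.18 (adjusted p = 0.356, limma). C3, C4b, Hc, the C1 protease genes C1ra and C1s1, the lectin protease gene Masp2 and the inhibitor genes Cfi (factor I) and Serping1 (C1 inhibitor) passed in neither comparison.

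**Figure D2:**
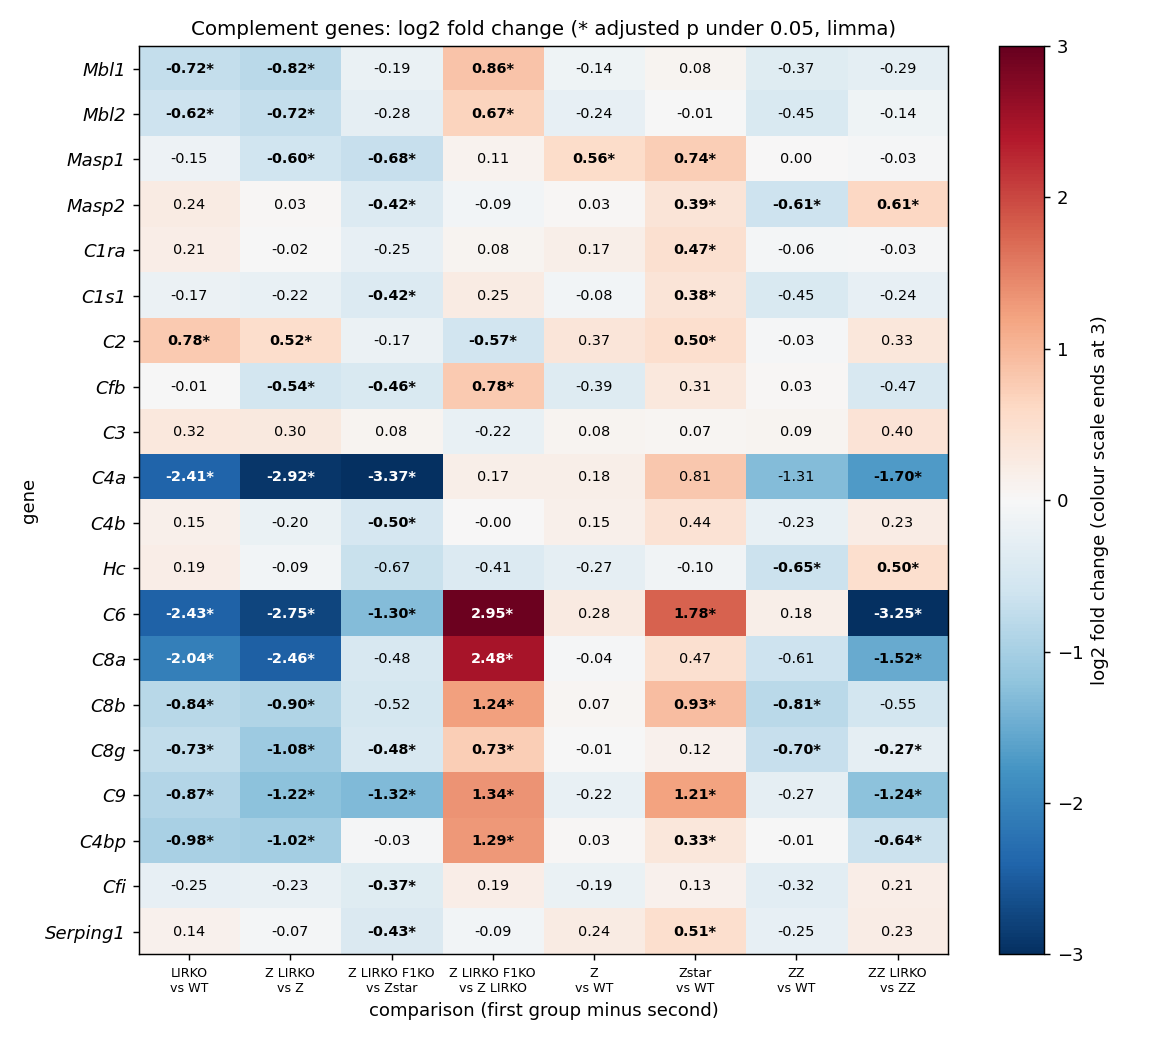
Log2 fold changes (colour and number) of the 20 complement members (rows, from initiators through C3, C4 and the terminal components to regulators) in 8 comparisons (columns, first group minus second), with an asterisk where the adjusted p is under 0.05. C6, C8a and C4a are the deepest in LIRKO against WT and Z LIRKO against Z, and C6 and C8a, not C4a, are higher in Z LIRKO F1KO than in Z LIRKO.

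The coagulation members moved in both directions when the insulin receptor was lost. In LIRKO against WT (hemizygous table) 3 rose and 4 fell with a median of -0.00, and in Z LIRKO against Z 5 rose and 5 fell with a median of 0.08, shares not far from those of all genes given above for these 2 comparisons. Scaled by plain read sums, 5 rose and 4 fell in the first, beside 14.9% and 8.02% of all genes, and 9 rose and 2 fell in the second, beside 20.6% and 12.2%. In the homozygous table the same LIRKO and WT livers gave 4 that rose and 3 that fell of 19, beside 13.8% and 14.0% of all genes.

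Kng1 and Pros1 rose in both. Kng1 encodes kininogen, the cofactor of contact activation and source of bradykinin. It stood at 11.22, 11.11, 11.17 and 11.25 log2 CPM in Z LIRKO livers, against 10.40, 10.57, 10.43, 10.67 and 10.34 in Z livers, and at 11.33, 11.65, 11.53 and 11.18 in LIRKO livers, against 10.68, 10.44 and 10.66 in WT livers. The groups did not overlap, and the changes were 0.71 ± 0.11 (adjusted p = 2.49e-05, limma) and 0.83 ± 0.12 (adjusted p = 2.84e-05). Pros1 encodes protein S, the cofactor of activated protein C. It stood at 6.84, 6.87, 6.73 and 6.71 in Z LIRKO livers, against 5.87, 5.70, 5.85, 6.01 and 5.91 in Z livers, again without overlap. It changed by 0.92 ± 0.10 (adjusted p = 3.19e-07, limma), and by 0.98 ± 0.11 (adjusted p = 1.35e-06) in LIRKO against WT, where it was at 6.67 to 7.03 in LIRKO and 5.65 to 6.25 in WT. F13b, the carrier subunit of the fibrin crosslinker factor XIII, rose by 0.37 in LIRKO against WT alone of the pair. Serpinf2 (alpha-2-antiplasmin), Fgb and F7 (the partner of tissue factor) rose in Z LIRKO against Z, by 0.42, 0.48 and 0.37, calls lost in 5, 6 and 2 of 17 alternative settings.

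F11, the gene of contact factor XI, was the coagulation member furthest down. It stood at 5.50, 5.38, 5.14 and 4.87 log2 CPM in Z LIRKO livers, against 5.15, 6.35, 6.21, 6.02 and 6.0 in Z livers. It was at 5.03, 4.85, 5.31 and 5.59 in LIRKO livers, against 6.96, 5.89 and 6.27 in WT livers. The Z LIRKO and Z livers overlapped through the Z mouse at 5.15, and the LIRKO and WT livers did not overlap. The changes were -0.72 ± 0.25 (adjusted p = 0.0262, limma) and -1.18 ± 0.28 (adjusted p = 0.00349). Without any 1 of 4 mice (Z 1411, Z 1442, Z LIRKO 1428 or Z LIRKO 1450) the first change missed the threshold, at -0.69 to -0.60. F2, the prothrombin gene, changed by -0.28 and -0.44 in the 2 comparisons, and Serpind1, heparin cofactor II, by -0.23 and -0.31, all past the threshold. In Z LIRKO against Z the F2 call was lost in 8 of 17 alternative settings (adjusted p up to 0.0981, limma) and that of Serpind1 in 9 of 17 (up to 0.131). Proc, the protein C gene, fell in LIRKO against WT by 0.41, and Klkb1 in Z LIRKO against Z by 0.62, within the limits of that identifier. Serpinc1, the antithrombin gene, changed by -0.25 in Z LIRKO against Z (adjusted p = 0.0446, limma), a call lost in 11 of 17 settings. F5, F9, F10, F12, Fga, Fgg, Plg and Vtn passed in neither comparison.

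**Figure D3:**
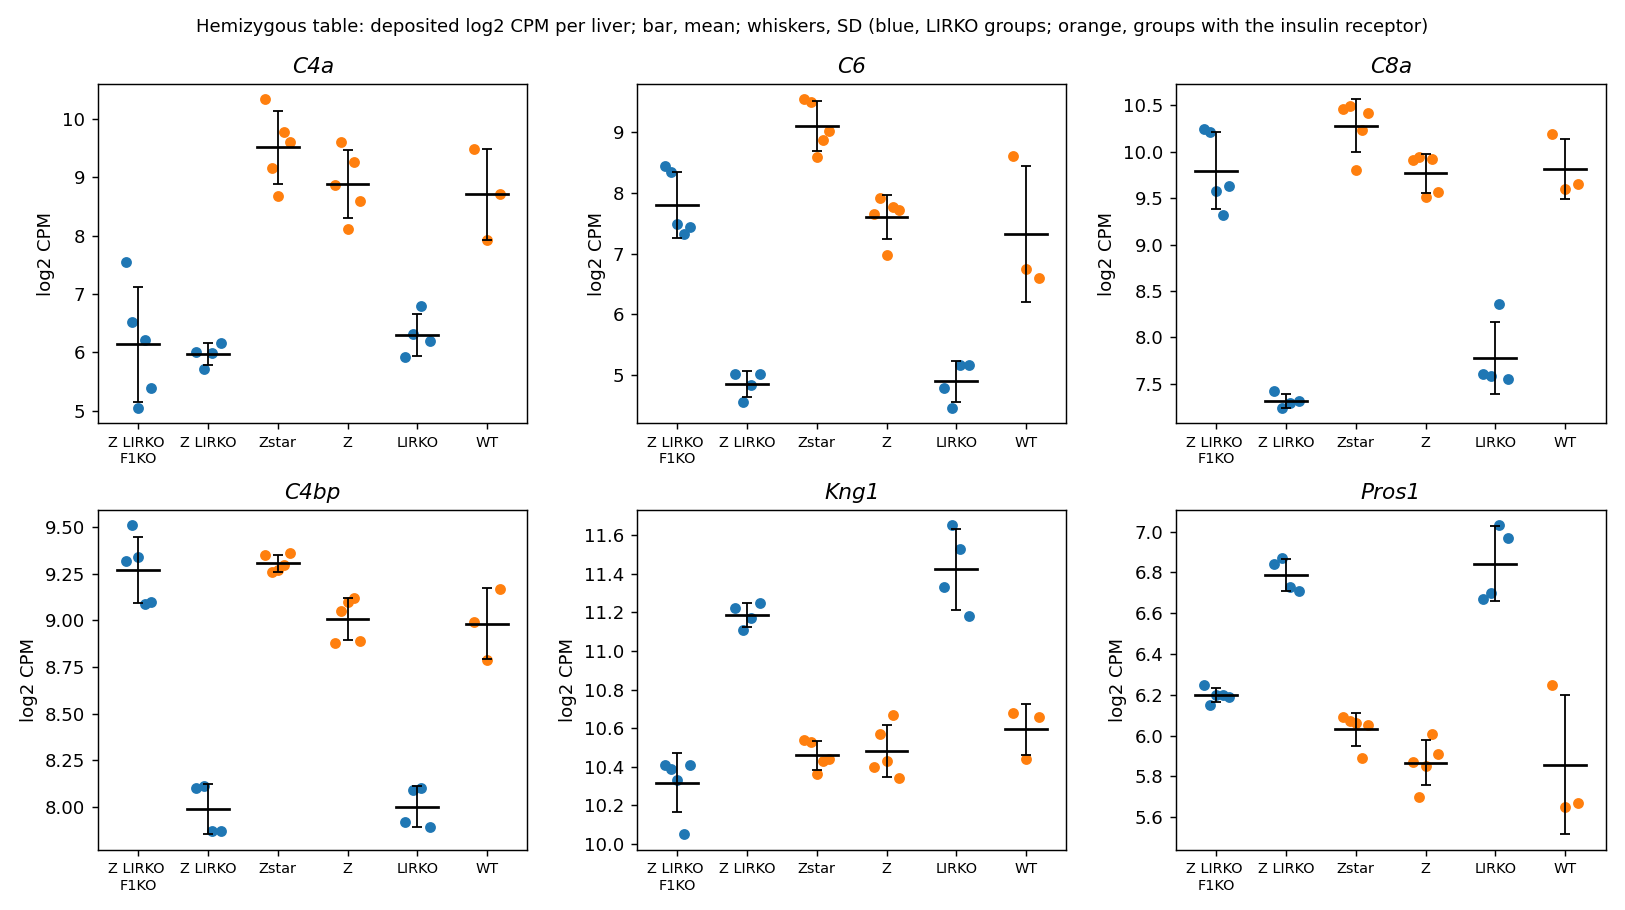
Deposited log2 CPM (y axis) of 6 members in each liver of the 6 groups of the hemizygous table (x axis), with the mean as a bar and the SD as whiskers. C6, C8a and C4bp in Z LIRKO F1KO lie far above Z LIRKO, C4a lies around the other LIRKO groups (5.05 to 7.55), and Kng1 and Pros1 in Z LIRKO F1KO lie below Z LIRKO.

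In Z LIRKO F1KO livers, with FOXO1 lost as well and another source label, most of the lowered complement genes were higher than in Z LIRKO, and C4a was not. In Z LIRKO F1KO against Z LIRKO 9 complement members rose and 1 fell, with a median of 0.22, beside 11.5% of all genes that rose and 11.1% that fell and a median of 0.01. The 9 were C6 (2.95, a fold of 7.71), C8a (2.48, a fold of 5.59), C9, C4bp (1.29), C8b, Mbl1, Cfb (0.78), C8g (0.73) and Mbl2, and C2 changed by -0.57. Of the coagulation members 1 rose (F11) and 6 fell (Kng1, Pros1, Fga, F7, Serpinf2 and Plg), with a median of -0.15. With plain read sums 10 complement members rose and 1 fell and 4 coagulation members rose and 6 fell, beside 14.2% and 8.31% of all genes. Of 10 acute phase markers 4 rose in this comparison, and 4 fell in Z LIRKO against Z. Against Zstar, the PiZ livers of the same source label, 11 complement members and 6 coagulation members fell in Z LIRKO F1KO, with medians of -0.44 and -0.19 against -0.01 over all genes, beside 11.1% of all genes that fell and 12.4% that rose. The complement members were C4a, C9 (-1.32), C6, Masp1 (-0.68), C4b, C8g, Cfb, Serping1, C1s1, Masp2 and Cfi, the last 7 by 0.50 to 0.37. That second count depended on scaling: with plain read sums, which move the median of all genes by 0.22, 5 complement members fell and 1 coagulation member rose, beside 3.87% of all genes that fell and 27.8% that rose. All 8 macrophage markers rose in Z LIRKO F1KO against Zstar (summed CPM 700 to 1364 in Z LIRKO F1KO and 340 to 402 in Zstar), and their part was not tested.

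Zstar livers kept FOXO1, and no group lost FOXO1 alone. The change in Z LIRKO F1KO against Zstar therefore joins the loss of the insulin receptor and of FOXO1. The F1KO difference is that change minus the change in Z LIRKO against Z, and includes any effect of FOXO1 loss by itself. It was past the threshold for 4 complement members that were higher (C8a, C6, C4bp and C8g), 2 that were lower (C2 and Masp2) and 4 coagulation members that were lower (Kng1, Pros1, Plg and F7), beside 3.27% of all genes called higher and 3.35% called lower. With plain read sums, which move the median of all genes by 0.13, 4 complement members were higher and 1 lower, and 3 coagulation members were lower, beside 6.30% of all genes higher and 2.13% lower. The medians were -0.11 over complement and -0.29 over coagulation, against 0.02 over all genes.

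C8a stood at 10.25, 10.21, 9.58, 9.32 and 9.63 log2 CPM in Z LIRKO F1KO livers, against 10.46, 10.49, 9.80, 10.24 and 10.42 in Zstar livers, so the groups overlapped. Its change was -0.48 ± 0.18 (adjusted p = 0.0569, limma), and the F1KO difference was 1.97 ± 0.27 (adjusted p = 4.63e-05). C4bp stood at 9.32, 9.51, 9.34, 9.09 and 9.10 in Z LIRKO F1KO livers, against 9.35, 9.26, 9.27, 9.30 and 9.36 in Zstar livers, again overlapping. It changed by -0.03 ± 0.09 (adjusted p = 0.817, limma), with a difference of 0.99 ± 0.13 (adjusted p = 4.45e-05). C6 stood at 8.44, 8.34, 7.48, 7.32 and 7.43 in Z LIRKO F1KO livers, against 9.54, 9.5, 8.58, 8.87 and 9.02 in Zstar livers. C6 thus still fell, by 1.30 (adjusted p = 0.00282, limma), while its F1KO difference was 1.45 ± 0.44 (adjusted p = 0.0464). Leaving out single mice gave C6 differences of 1.29 to 1.6 and an adjusted p above the threshold for 13 of the 19 mice. For C8g the difference was 0.59 (adjusted p = 0.046, limma), and it too missed the threshold without most single mice. Mbl1, Mbl2, C8b and C9 rose in Z LIRKO F1KO against Z LIRKO, by 0.86, 0.67, 1.24 and 1.34, with F1KO differences that did not pass (0.63, 0.43, 0.38 and -0.10). Cfb rose by 0.78, and its F1KO difference did not pass either. Zstar livers, which kept FOXO1, were also higher than Z livers for C9 (1.43), C8b (0.86) and Cfb (0.70). Mbl1 and Mbl2 (both 0.23) did not pass there.

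C4a stood at 7.55, 6.52, 5.05, 6.21 and 5.39 log2 CPM in Z LIRKO F1KO livers, against 10.34, 9.16, 8.68, 9.78 and 9.60 in Zstar livers. The groups did not overlap, and the change was -3.37 ± 0.38 (adjusted p = 1.58e-06, limma), a fold of 10.3. Against Z LIRKO it was 0.17 ± 0.40 (adjusted p = 0.8, limma), and the F1KO difference was -0.45 ± 0.55 (adjusted p = 0.677). C4b changed by -0.50 against Zstar and -0.00 against Z LIRKO. The C4a minus C4b difference of log2 CPM was -4.98 to -2.53 in Z LIRKO F1KO and -1.49 to -0.06 in Zstar. Hc overlapped, at 8.86 to 9.82 in Z LIRKO F1KO and 8.67 to 10.77 in Zstar (-0.67, adjusted p = 0.072, limma).

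Kng1 stood at 10.41, 10.39, 10.33, 10.05 and 10.41 log2 CPM in Z LIRKO F1KO livers, against 10.54, 10.53, 10.36, 10.43 and 10.44 in Zstar livers. The F1KO difference was -0.85 ± 0.15 (adjusted p = 0.000871, limma). Pros1 stood at 6.25, 6.15, 6.20, 6.20 and 6.19 in Z LIRKO F1KO livers, against 6.09, 6.07, 6.06, 5.89 and 6.05 in Zstar livers. All 5 were above Zstar and below all 4 Z LIRKO livers, with a difference of -0.75 ± 0.14 (adjusted p = 0.0014, limma). For Plg, the plasminogen gene, it was -0.64 (adjusted p = 0.0348, limma) and for F7 -0.56 (adjusted p = 0.0358), and both missed the threshold when several single mice were left out. F11 was higher in Z LIRKO F1KO than in Z LIRKO, by 1.11 ± 0.25 (adjusted p = 0.00198, limma), yet its F1KO difference was -0.00 ± 0.34 (adjusted p = 0.996, limma), and Zstar livers were also higher than Z livers, by 1.12. Vtn, F9, F12, Plg, Serpind1 and F11 were the 6 coagulation members lower in Z LIRKO F1KO than in Zstar, by 0.73 at most (F11), and with plain read sums none of these 6 calls held. The fibrinogen genes did not pass against Zstar (-0.22, -0.03 and -0.09 for Fga, Fgb and Fgg), and Fga changed by -0.50 against Z LIRKO.

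**Figure D4:**
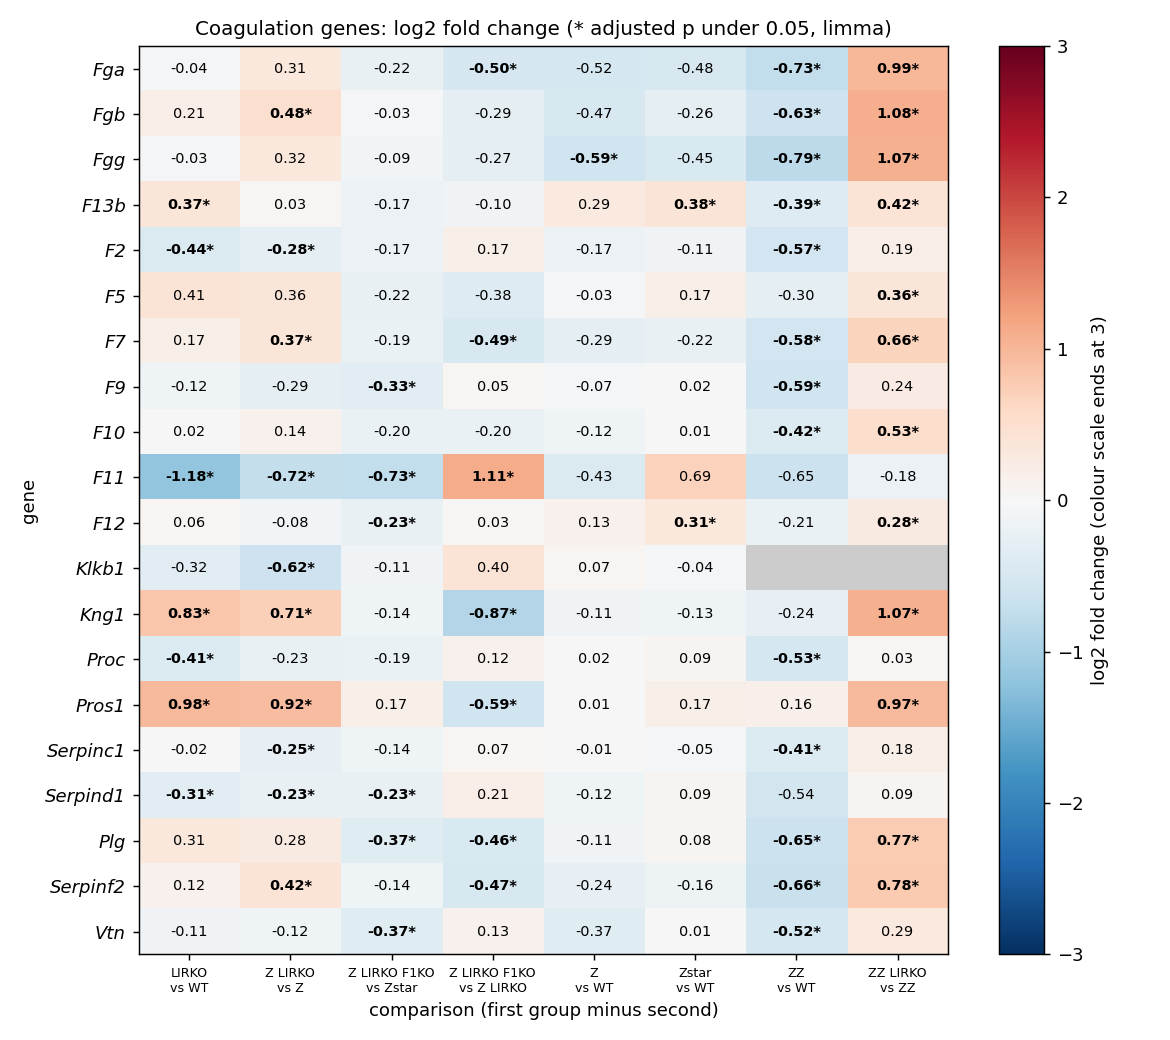
Log2 fold changes (colour and number) of the 20 coagulation members (rows, from fibrinogen through the factors to inhibitors and plasmin system) in 8 comparisons (columns, first group minus second), with an asterisk where the adjusted p is under 0.05. Klkb1 is grey where it was not analysed. Most members are negative in ZZ against WT and positive in ZZ LIRKO against ZZ.

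Few members differed between hemizygous PiZ livers labelled Z and WT livers. In Z against WT only Masp1 rose, by 0.56 ± 0.14 (adjusted p = 0.0113, limma), and only Fgg, the fibrinogen gamma chain, fell, by 0.59 ± 0.18 (adjusted p = 0.0348), beside 5.89% and 4.54% of all genes, so members were called no more often than genes at large. The medians were 0.03 for complement and -0.12 for coagulation, against -0.01 over all genes. Fga, Fgb and Fgg stood at 11.56 to 12.15, 11.69 to 12.18 and 10.90 to 11.39 log2 CPM in Z, against 12.31 to 12.47, 12.17 to 12.52 and 11.69 to 11.89 in WT. The ranges of Fga and Fgg did not overlap, though the change of Fga (-0.52, adjusted p = 0.0688, limma) missed the threshold. Neither call held with only Z and WT in the fit or with a clock value per library as a covariate.

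The Zstar livers differed more, with complement genes higher. In Zstar against WT 10 complement members rose, with a median of 0.42, and 2 coagulation members rose (F12 and F13b), beside 8.58% of all genes that rose, 7.47% that fell and a median of -0.02. The largest were C6 at 1.78 ± 0.35 (adjusted p = 0.00115, limma), C9 at 1.21, C8b at 0.93 and Masp1 at 0.74. The others were Serping1, C2, C1ra, Masp2, C1s1 and C4bp, by 0.51 to 0.33. The coagulation share lies near that of all genes. Of 10 acute phase markers 3 rose in the same comparison, Saa1 (2.47), Saa2 (2.53) and Orm1 (0.89), with a summed CPM of 10512 to 17357 in Zstar and 9055 to 11868 in WT, and 2 of 8 endothelial and 1 of 8 macrophage markers fell. Their part was not tested. In Zstar against Z, both PiZ by genotype label and apart in source label, 8 complement members rose (C6, C9, C8b, Cfb, C1s1, Masp2, C4bp and C1ra) and 2 coagulation members (F11 and Vtn), beside 4.37% of all genes that rose and 5.10% that fell. C6 stood at 9.54, 9.5, 8.58, 8.87 and 9.02 log2 CPM in Zstar, above every Z liver, and its change was 1.5 ± 0.30 (adjusted p = 0.00252, limma). F11 stood at 7.20, 7.55, 6.70, 6.90 and 6.98 in Zstar, also above every Z liver, with a change of 1.12 ± 0.23 (adjusted p = 0.00351, limma).

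The Zstar against WT calls depended on which WT livers were used. Prss2, a pancreatic trypsin gene, was above 0 log2 CPM in 1 of 5 Zstar libraries, at 0.93, and in 2 of 3 WT libraries, at up to 6.78. The clock value also differed, at 2.18 to 3.82 in Zstar and -0.73 to 1.48 in WT. WT mouse 1564, the 1 with Prss2 below 0 log2 CPM (-3.32), was also the highest WT liver for C6 (8.61), C9 (9.80) and C8b (8.97). Without the Prss2 libraries none of the 40 members was called in Zstar against WT by limma, with that single WT liver left and a C6 change of 0.62, and with the clock value as a covariate 3 were. Without WT mouse 1586 alone 3 members were called.

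Homozygous PiZ livers had lower coagulation genes. In ZZ against WT 13 of 19 coagulation members fell, with a median of -0.54, beside 14.2% of all genes that fell, 16.1% that rose and a median of -0.04. Of complement 4 members fell (C8b, C8g, Hc and Masp2), with a median of -0.29, a share near that of all genes. Scaled by plain read sums, which moved the median of all genes by 0.27, 4 coagulation members and 2 complement members fell, beside 3.54% of all genes that fell and 30.7% that rose. The hepatocyte markers fell for 5 of 9, with a summed CPM of 67274 to 91400 in ZZ and 129408 to 141735 in WT, and all 6 biliary markers rose, at 186 to 226 CPM in ZZ and 26.7 to 47.3 in WT. Stellate markers rose for 6 of 8 (summed CPM 650 to 762 in ZZ and 289 to 324 in WT), among them Col1a1 by 3.96. Of 10 acute phase markers 5 rose and 1 fell (11215 to 15980 CPM in ZZ and 8833 to 11126 in WT), with Lcn2 at 4.89 and Saa2 at 2.01. The part of these shifts in the lower coagulation genes was not tested.

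The fibrinogen genes sit together on chromosome 3 and encode the chains of one protein. Fga (chr3:83026076-83033627, plus strand) stood at 11.59, 11.76 and 12.01 log2 CPM in ZZ livers, against 12.63, 12.45 and 12.46 in WT livers. Fgb stood at 11.24, 11.78 and 11.59 in ZZ livers, against 12.25, 11.96 and 12.29 in WT livers. Fgg stood at 11.02, 11.11 and 11.35 in ZZ livers, against 12.06, 11.86 and 11.94 in WT livers. All 3 ZZ livers were below all 3 WT livers for each gene. The changes were -0.73 ± 0.23 (adjusted p = 0.0253, limma), -0.63 ± 0.23 (adjusted p = 0.0482) and -0.79 ± 0.22 (adjusted p = 0.0138). Without ZZ mouse 1682 they were -0.64, -0.48 and -0.72, none past the threshold (adjusted p = 0.0911, 0.179 and 0.0528, limma). Serpinf2 at -0.66 and Plg at -0.65, the antiplasmin and plasminogen genes, were as far down, and F7 at -0.58 had the smallest adjusted p (0.000113, limma), at 5.97, 6.32 and 6.11 in ZZ livers against 6.71, 6.69 and 6.75 in WT livers. F9, F2, Proc, Vtn, F10, Serpinc1 and F13b fell by 0.59 to 0.39. F11, Serpind1, F5, Kng1, F12 and Pros1 did not pass.

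C8g was the complement member with the smallest adjusted p in ZZ against WT, at -0.70 ± 0.09 (adjusted p = 4.96e-05, limma), and Masp2 fell by 0.61. C8b fell by 0.81 and Hc by 0.65, and neither held without WT mouse 1564 (-0.53 and -0.41). Mbl1 and Mbl2 did not pass (-0.37 and -0.45). C6 did not pass (0.18 ± 0.43), and its value turned on the WT livers, being -1.43 (adjusted p = 0.0294, limma) without the Prss2 libraries. C4a was uneven, at 8.44, 6.36 and 8.95 log2 CPM in ZZ livers, against 10.04, 8.49 and 9.15 in WT livers (-1.31 ± 0.48, adjusted p = 0.0514, limma), while C4b changed by -0.23. ZZ mouse 1809 was at the level of the LIRKO livers for C4a.

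**Figure D5:**
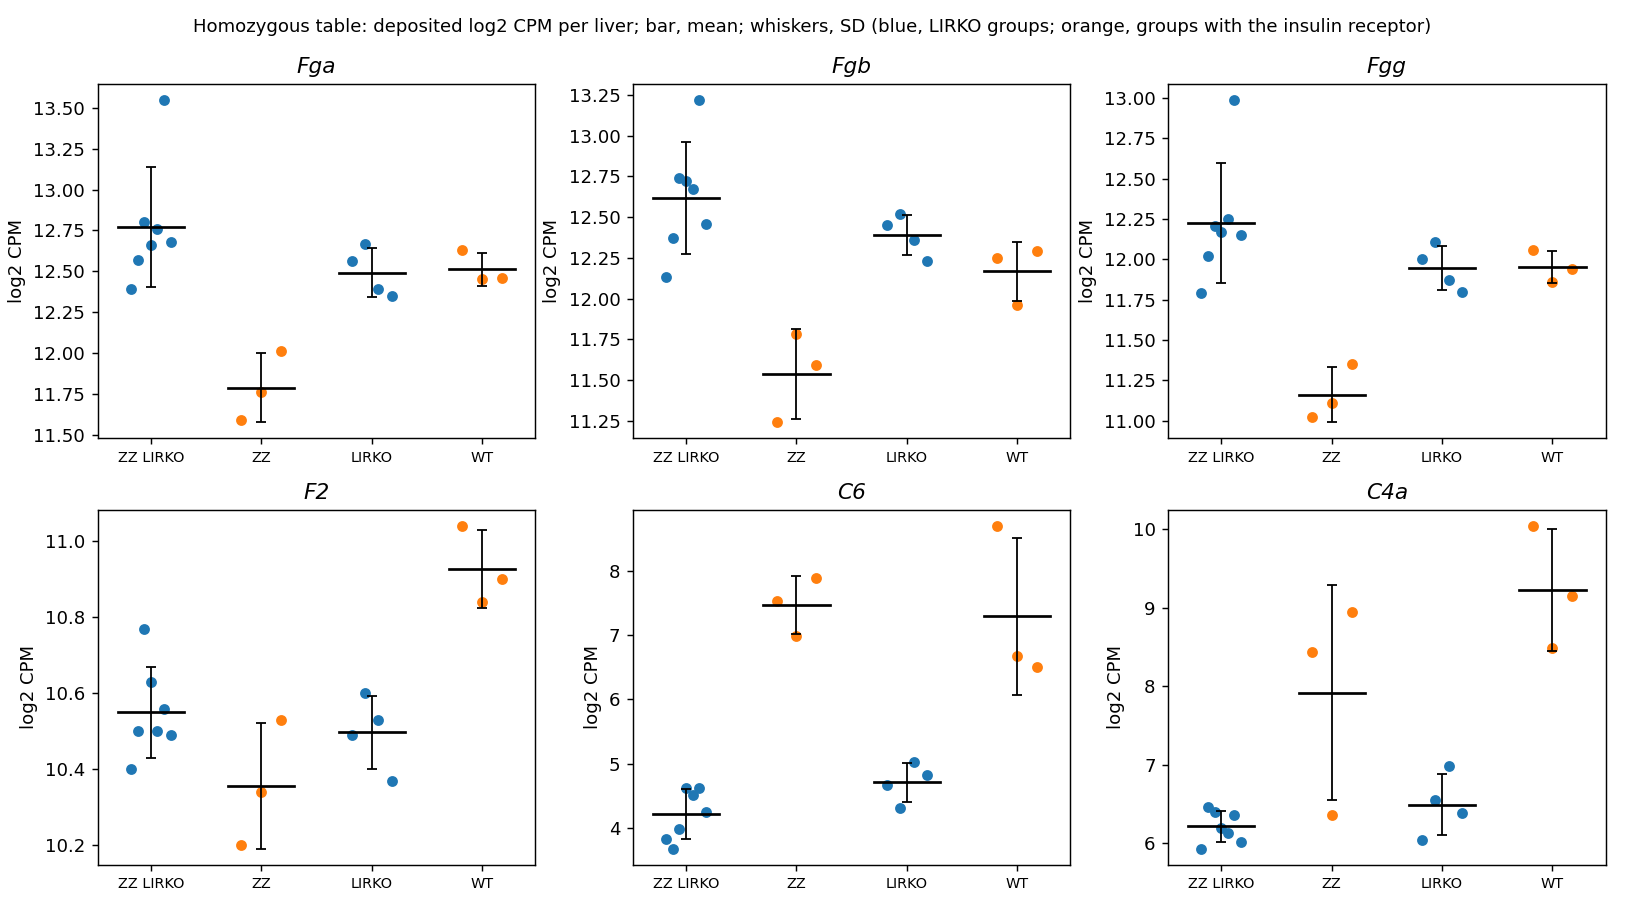
Deposited log2 CPM (y axis) of 6 members in each liver of the 4 groups of the homozygous table (x axis), with the mean as a bar and the SD as whiskers. The fibrinogen genes are lowest in ZZ and highest in ZZ LIRKO mouse 1876, and C6 is lowest in ZZ LIRKO and LIRKO.

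When the insulin receptor was lost in homozygous PiZ livers, 12 coagulation members rose, while 4 of the terminal complement genes (C6, C8a, C8g and C9) fell and Hc rose. In ZZ LIRKO against ZZ the coagulation members that rose were 12 of 19, with a median of 0.42, beside 13.2% of all genes that rose, 13.6% that fell and a median of -0.01. Of complement 6 members fell and 2 rose, with a median of -0.19. With plain read sums, which moved the median of all genes by -0.18, 9 coagulation members rose, and 10 complement members fell and 1 rose, beside 7.12% of all genes that rose and 28.1% that fell. All 6 biliary markers fell (25.7 to 47 CPM in ZZ LIRKO, 186 to 226 in ZZ), and 7 of 8 endothelial markers rose (307 to 424 CPM in ZZ LIRKO, 240 to 260 in ZZ). Of 9 hepatocyte markers 5 rose and 1 fell, with changes from -1.04 to 1.81 (86917 to 110882 CPM in ZZ LIRKO, 67274 to 91400 in ZZ). Alb, 1 of them, averaged 15.63 log2 CPM in ZZ LIRKO and 15.64 in ZZ. The part of these shifts was not tested.

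The largest coagulation changes were those of Fgb (1.08 ± 0.19, adjusted p = 0.000753, limma), Kng1 (1.07 ± 0.14, adjusted p = 5.67e-05), Fgg (1.07 ± 0.19, adjusted p = 0.000676) and Fga (0.99 ± 0.20, adjusted p = 0.00149). Fga ranged from 12.39 to 13.55 log2 CPM in ZZ LIRKO, with a median of 12.68, against 11.59, 11.76 and 12.01 in ZZ livers. Fgb ranged from 12.13 to 13.22, with a median of 12.67, and Fgg from 11.79 to 12.99, with a median of 12.17. None of the 7 ZZ LIRKO livers overlapped ZZ for these 3 genes, and mouse 1876 was the highest for all 3. Pros1 rose by 0.97, Serpinf2 by 0.78, Plg by 0.77 and F7 by 0.66, and F10, F13b, F5 and F12 by 0.53 to 0.28. F11, which fell in LIRKO against WT of the same table by 1.25, changed by -0.18 (adjusted p = 0.602, limma).

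C6 ranged from 3.68 to 4.63 log2 CPM in ZZ LIRKO, with a median of 4.25, against 7.52, 6.99 and 7.88 in ZZ livers. Its change of -3.25 ± 0.37 (adjusted p = 1.75e-05, limma), a fold of 9.52, was the deepest of the 20 complement members. C4a, C8a, C9 and C4bp fell by 1.70, 1.52, 1.24 and 0.64. C4a stood at 5.93 to 6.46 in ZZ LIRKO, so it overlapped the ZZ mouse at 6.36. Without ZZ mouse 1846 the changes of C4a and C9 were -1.19 (adjusted p = 0.054, limma) and -0.99 (adjusted p = 0.0521). C8g fell by 0.27, while Masp2 rose by 0.61 and Hc by 0.50. Hc stood at 9.72 to 10.16 in ZZ LIRKO, against 9.24, 9.33 and 9.74 in ZZ livers. C4b changed by 0.23, Mbl1 by -0.29 and Mbl2 by -0.14, none past the threshold.

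The homozygous interaction asks whether this change differs from that in LIRKO against WT of the same table. It was past the threshold for 4 coagulation members, Fgg (1.07), Fga (1.01), F2 (0.62) and F7 (0.39), and 1 complement member, Masp2 (0.47), all higher, beside 3.03% of all genes called higher and 4.72% called lower. With plain read sums, which moved the median of all genes by -0.26, 1 coagulation member was higher and 1 complement member lower, beside 0.964% and 15.9% of all genes. The coagulation median was 0.39, against 0.01 over all genes. F2 stood at 10.40 to 10.77 log2 CPM in ZZ LIRKO and 10.20, 10.34 and 10.53 in ZZ livers, and at 10.37 to 10.60 in LIRKO and 10.84 to 11.04 in WT. The count was small and unsteady: leaving out single mice gave 0 to 7 members, with 0 by limma when ZZ mouse 1682 was left out.

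Other genes of the 2 pathways, from lists of regulators, receptors and genes made partly outside hepatocytes, were read beside the members. Of 32 other complement genes, 5 rose and 3 fell in LIRKO against WT, and 10 rose and 3 fell in Z LIRKO against Z. Among those with the smallest p were Cpn1, the carboxypeptidase that inactivates anaphylatoxins (-0.58), and C1rl (-0.36) in LIRKO against WT, and Fcna (0.76), C1rl (-0.43) and properdin, Cfp (0.79), in Z LIRKO against Z. Of 32 other coagulation genes 5 rose and 7 fell in the first comparison, and 8 rose and 11 fell in the second, beside the same shares. Serpine2, an inhibitor of thrombin and plasminogen activators, fell by 3.52 in LIRKO against WT and by 5.03 in Z LIRKO against Z. Tfpi2 changed by -1.05 and -1.24, and Kng2, the second kininogen gene, by 0.94 and 0.84. In Z LIRKO F1KO against Z LIRKO, Serpine2 rose by 3.65, while Hrg, the histidine-rich glycoprotein gene, fell by 1.04 and Kng2 by 0.71. The F1KO difference was called for Cfhr2 (1.10) and Vsig4 (0.54) among complement genes, and for 8 coagulation genes. Of all genes 3.27% were called higher and 3.35% lower. Among the 8 coagulation genes the smallest p were those of Hrg (-1.14), Tfpi2 (0.91) and F2rl2 (-1.67).

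In ZZ against WT (homozygous table) 13 of the 19 coagulation members fell, beside 14.2% of all genes that fell and 16.1% that rose. Of 33 other coagulation genes 14 rose and 2 fell. Those that rose were led by Plat, tissue plasminogen activator (4.00 ± 0.27, adjusted p = 9.56e-08, limma), Anxa2, a plasminogen receptor (2.83), and the adhesive protein gene Thbs1 (3.69). Of 31 other complement genes 8 rose and 8 fell, among them the complement receptor chains Itgax (3.90) and Itgam (2.63), found on leukocytes, and the lectin Colec10 (-1.0). In ZZ LIRKO against ZZ 6 other coagulation genes rose and 10 fell, with Kng2 at 1.25, Hrg at 1.20 and Anxa2 at -1.86. In the same comparison 7 other complement genes rose and 2 fell, with Colec10 at 1.15, Cfp at 0.84 and Fcna at 0.98. Beside these stood 13.2% of all genes that rose and 13.6% that fell. The interaction was called for 4 other coagulation genes, with Anxa2 at -2.18, Plat at -2.02 and F2rl1 at -2.60. It was also called for 7 other complement genes, with C1rl at 0.69, Cpn1 at 0.54 and Colec10 at 0.64. Of all genes 3.03% were called higher and 4.72% lower. The macrophage markers summed to 412 to 490 CPM in ZZ and 260 to 365 in WT, and 3 of 8 rose and 1 fell in that comparison.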

How the data were processed

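RNA-seq of mouse liver gave a hemizygous table (14622 genes, 26 libraries) and a homozygous table (17 libraries). Per the submitters' processing notes the tools were STAR 2.0.4b, Subread and featureCounts 1.4.5, with the build GRCm38; no source used here gives the annotation or the strand rule. The deposited values are log2 CPM that the labels call moderated. Read as log2 of (reads + 0.5) scaled to a normalized library size, they gave back whole reads for 100% of values within 0.01. Of the lines, 115 and 55 were repeats and were dropped, and 1 column that matched no sample was not used.

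Genes at 0 log2 CPM or more in at least 3 libraries were tested (13596 and 13690 genes) with limma 3.58.1 in R 4.3.3, on the log2 values with a mean-variance trend. All groups of a table were in 1 fit, tests were two-sided, and p-values were adjusted over all tested genes with a threshold of 0.05. The pipeline was checked on simulated data. Nothing in the labels says how the livers were shared out between RNA extractions, so p-values measure the spread between these mice. In each comparison up to 4 complement and 4 coagulation members with the largest change among those past the threshold were to be named, with up to 3 genes of each list of other pathway genes by smallest p; 1 such gene is not reported here. C4a, C4b, Hc, the fibrinogen genes and the mannose-binding lectin genes were followed throughout, and other members are named to account for the counts, after their values were seen. The members and all lists were chosen with earlier results of these data known. The alternatives were no filter, log2(CPM + 1), plain read sums, median-of-ratios scaling, the compared groups alone, voom weights on the recovered reads, a clock covariate, leaving out the libraries with Prss2 above 0 log2 CPM, leaving out each mouse, and taking Z and Zstar as 1 group.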

Additional observations from a re-analysis of the deposited data

Results flagged for a closer look

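Of 278 groups of 4 to 7 livers, 10 (3.6%) held a liver set apart from its group by Dixon's test, and chance flags about 1 in 20 groups. Lower than the rest were C2 in Z LIRKO F1KO mouse 207 (4.71 log2 CPM, next 5.15), C6 in Z mouse 1442 (6.98, next 7.65) and Kng1 in Z LIRKO F1KO mouse 206 (10.05, next 10.33). In Zstar the low values were Proc in mouse 249 (9.01, next 9.40), Pros1 in mouse 251 (5.89, next 6.05) and Serpinc1 in mouse 285 (10.66, next 10.89). Higher than the rest were C8a in LIRKO mouse 1483 (8.36, next 7.61) and F2 in Z LIRKO mouse 1412 (10.51, next 10.37). ZZ LIRKO mouse 1876 was high for Fga (13.55, next 12.80) and Fgg (12.99, next 12.25), which lie beside each other on chromosome 3.

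The change in Z LIRKO F1KO against Zstar, which joins the loss of the insulin receptor and of FOXO1, differed from that in Z LIRKO against Z. By limma's test of this F1KO difference it did so for 10 members, beside 3.27% of all genes called higher and 3.35% lower. The difference was 1.97 for C8a, 1.45 for C6, 0.99 for C4bp, 0.59 for C8g, -0.45 for Masp2 and -0.69 for C2. It was -0.56 for F7, -0.64 for Plg, -0.75 for Pros1 and -0.85 for Kng1. By limma the LIRKO effect differed between homozygous PiZ livers and livers without PiZ for 5 members, beside 3.03% of all genes called higher and 4.72% lower. The differences were 1.07 for Fgg, 1.01 for Fga, 0.62 for F2, 0.39 for F7 and 0.47 for Masp2. Under every alternative setting but the one that joins Z and Zstar, 4 of the 10 calls and 0 of the 5 were kept.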

How the results depend on the processing

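Over the 13 comparisons, 9090 of the recomputed values kept their side of the threshold, 476 were no longer past it, 120 came past it and 2 reversed. A reversal is a change of direction in a value past the threshold in the report or in the alternative. Changes of direction in values past it in neither were counted among the 9090. Both reversals came without the Prss2 libraries, which leaves 1 WT liver: C2 in Zstar against WT (-0.06) and C6 in ZZ against WT (-1.43). With plain read sums, 6 members were called in Z LIRKO F1KO against Zstar (17 in the report), 6 in ZZ against WT (17) and 2 in the homozygous interaction (5). The shares of all genes under this scaling are given above with each of these comparisons. For the settings that follow they are not given, and whether the counts of members follow those of all genes was not tested. With only the compared groups in the fit, 11 were called in Z LIRKO F1KO against Zstar, 0 in Z against WT and 4 in Zstar against WT. With the clock covariate the limma counts were 11 in LIRKO against WT (17), 0 in Z against WT (2) and 3 in Zstar against WT (12). Without the Prss2 libraries they were 6 in Z LIRKO F1KO against Zstar, 6 for the F1KO difference (10), 0 in Z against WT, 0 in Zstar against WT, 9 in LIRKO against WT of the homozygous table (15) and 3 in the homozygous interaction. With Z and Zstar as 1 group, 5 members were called in each of Z LIRKO F1KO against the pooled PiZ livers and pooled PiZ against WT. Leaving out single mice gave 11 to 21 members in Z LIRKO F1KO against Zstar, 4 to 10 for the F1KO difference, 0 to 4 in Z against WT, 3 to 12 in Zstar against WT, 11 to 18 in ZZ against WT and 0 to 7 in the homozygous interaction. The cause was not tested, beyond the fewer samples that some settings leave. The calls kept under every setting but the pooled one were 9 of 17 in LIRKO against WT, 14 of 22 in Z LIRKO against Z, 12 of 17 in Z LIRKO F1KO against Z LIRKO, 5 of 17 in Z LIRKO F1KO against Zstar, 4 of 10 for the F1KO difference (C8a, C4bp, Pros1 and Kng1), 7 of 10 in Zstar against Z, 7 of 15 in LIRKO against WT of the homozygous table, 6 of 17 in ZZ against WT, 13 of 20 in ZZ LIRKO against ZZ, 0 of 2 in Z against WT, 0 of 12 in Zstar against WT and 0 of 5 in the homozygous interaction. Depth was no limit on the members, the lowest of which stood far above 3 reads (-2.47 log2 CPM in the median hemizygous library). No paired analysis was possible because the labels number the mice and no number is shared between the groups compared.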
